A study of Mus musculus with 6 samples.

Results

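The endothelia gate is one of 2 sort gates used to take single cells from mouse kidney, and the comparison described here sets cells from kidneys at day 10 of unilateral ureteric obstruction (UUO) against cells from uninjured mice. Members were the wells whose deposited plate layout carries the endothelia gate with either condition, kept where a well held at least 1000 genes and 20000 reads on genes. That left 761 of 768 sorted wells, 380 uninjured and 381 at day 10, out of 2235 kept wells of the whole series. UUO is the tying of 1 ureter, which blocks urine flow from that kidney and is a standard model of kidney fibrosis. Cells were released by enzymatic digestion, sorted one to a well, and read with Smart-seq2, which amplifies whole transcripts of a single cell.

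Each of 6 plates mixed cells of 1 healthy mouse, 1 mouse at day 2 of UUO and 1 mouse at day 10 of UUO, and every well carries a number from 1 to 4. The number is shared by plates 1 and 2, by plates 5 and 6, and marks plates 3 and 4 singly, and it was taken to mark the mouse of a condition. Reads of all kept wells of 1 condition and number were added, giving 4 sums per condition, and "sum" is used in that sense below. The sums held 126, 64, 64 and 126 uninjured wells with 21981703 to 42799992 reads, and 127, 64, 64 and 126 day 10 wells with 27396787 to 56326210 reads. Nothing in the labels says more about the animals (strain, age and sex are not given, nor the sort markers), so the p-values measure the spread between these sums, part of which may be technical. Uninjured endothelia wells filled plate columns 5 to 8 and day 10 wells columns 21 to 24 on all plates, so condition and plate column cannot be told apart.

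Kidney endothelium is not 1 tissue. Fenestrated glomerular capillaries carry out filtration, peritubular capillaries take back the solutes that the tubules reabsorb, and arterioles and vasa recta regulate and distribute the flow. Endothelial cells display the machinery that unloads lipid from the blood, deposit their own basement membrane, read blood flow, and answer interferon and other inflammatory signals, and in the obstructed kidney the capillaries lie beside injured tubules and a growing scar.

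The gate label was checked against marker genes. All 8 general endothelial markers were present in every condition, and their summed level was 18559 to 25038 CPM (reads of a gene scaled to a library of fixed size) in the uninjured sums and 18254 to 22082 CPM at day 10. Pecam1, the CD31 adhesion molecule, stood at 2266 ± 248 CPM in uninjured sums and 2565 ± 264 CPM at day 10 (mean ± SD, n = 4 sums, as throughout). Glomerular endothelial markers were the most abundant subtype markers, at 9679.9 to 21483 CPM against 12627 to 23120 CPM. Plat alone gave a mean of 8174 of the 13755 CPM uninjured and 13216 of the 17213 CPM at day 10. The median log2 change of the 9 members was -0.25, and 4 were above 0. Ehd3, a marker of glomerular endothelium, reached 10 reads in 252 of 380 uninjured wells and in 281 of 381 day 10 wells. In the other gate, of mesenchyme, uninjured wells also reached it, 34 of 120, 18 of 61, 16 of 61 and 34 of 122 in numbers 1 to 4. Peritubular capillary markers summed to 712 to 4309 CPM against 2909 to 4529 CPM, a list that includes Gpihbp1, and arterial markers to 1996 to 4798 CPM against 1478 to 3680 CPM. The peritubular members did not move together: their median log2 change was -0.47, and 3 of 8 were above 0. Mean Gpihbp1 went from 282 to 1576 CPM and Igfbp3 from 662 to 1630 CPM, while Plvap went from 1284 to 472 CPM and Npr3 from 54.2 to 6.65 CPM. The 4 vasa recta markers, among them Aqp1, a water channel that proximal tubule cells also make, summed to 267 to 3149 CPM against 167 to 470 CPM, and none of the 4 passed the test described below.

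Markers of cells outside the endothelium were low but not absent. Mural cell markers summed to 57.0 to 924 CPM in uninjured sums and 54.97 to 197 CPM at day 10, and fibroblast markers to at most 44.7 CPM and 88.3 CPM. Leukocyte markers summed to 39.3 to 48.9 CPM uninjured and 30.2 to 196 CPM at day 10, the highest being number 3. Podocyte markers ranged from 111 to 427 CPM and from 178 to 1535 CPM. Markers of tubule segments beyond the proximal tubule were the exception to overlapping ranges: they summed to 72.2 to 1333 CPM in uninjured sums and 0.266 to 46.4 CPM at day 10. Proximal tubule markers summed to 219.6, 3.90, 1296 and 1568 CPM in uninjured numbers 1 to 4 and to 4.26 to 9.84 CPM at day 10, so uninjured number 2 lay below every day 10 sum. Wells with at least 100 CPM of tubule markers numbered 200 of 380 uninjured (50 of 126, 6 of 64, 48 of 64 and 96 of 126 in numbers 1 to 4) and 19 of 381 at day 10. Depth differed as well, with a median of 353766.5 reads per uninjured well and 447221 per day 10 well.

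**Figure D1:**
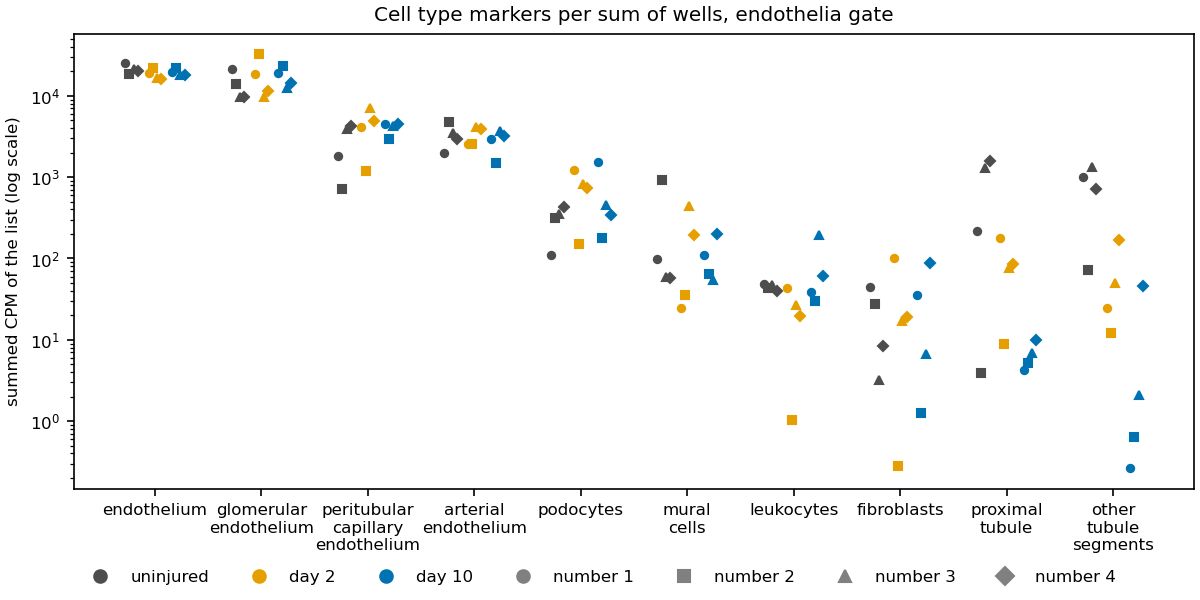
Summed CPM of each cell type marker list (log scale) in the endothelia-gate sums, by condition (colour) and number (symbol). Endothelial markers lie near 20000 CPM in all sums, while uninjured sums of numbers 1, 3 and 4 stand far above the day 10 sums for both tubule lists.

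Day 10 wells held more genes. The median number of genes detected per well was 2943, 2901.5, 2580.5 and 2647 in uninjured numbers 1 to 4 and 3458, 3079, 3062.5 and 3343.5 at day 10, and the groups did not overlap (2768 ± 181 against 3236 ± 196, exact 2-sided permutation p = 0.0286, the smallest that 4 against 4 allows, adjusted p = 0.0429 over 3 measures). Thinning each well to 20000 reads left 2000 ± 114 genes against 2339 ± 76.6 genes (exact permutation p = 0.0286, adjusted p = 0.0429). Reads on genes relative to reads on the added ERCC spike-in RNA, a measure of RNA per well, were 1.17-fold higher at day 10, with log2 ratios of 7.92 ± 0.1295 and 8.14 ± 0.0856 that overlapped between groups (exact permutation p = 0.0571, adjusted p = 0.0571).

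Of 14026 genes tested with edgeR's quasi-likelihood test, with number as a block, 91 (0.649%) passed a Benjamini-Hochberg adjusted p of 0.05, and every adjusted p below is from this fit unless another is named. Of these 45 were higher at day 10 (0.321%) and 46 lower (0.328%), and each of the 91 had 1 sign in all 4 numbers. The median log2 change over all genes tested was -0.02. At an unadjusted p of 0.05, 1525 genes (10.9%) passed, 717 higher and 808 lower, and in 934 genes (6.66%) the uninjured and day 10 sums did not overlap. DESeq2's Wald test called 760 of the same 14026 genes, 332 higher and 428 lower. In edgeR without number in the model 50 genes passed, 45 of them among the 91. The main fit estimated its spread from 12 sums, those of day 2 included. With the 8 uninjured and day 10 sums alone 9 genes passed. Of these 8 were among the 91: Acsm2, Akap12, Cdc42ep3, Clec14a, Gda, Gpihbp1, Klf12 and Litaf. The list of calls moved with single sums: 8, 58, 18 and 6 genes passed without numbers 1, 2, 3 and 4, then 52, 60, 26 and 17 without 1 uninjured sum each, and 18, 30, 23 and 20 without 1 day 10 sum each. Cdc42ep3, Clec14a, Gda, Gpihbp1 and Litaf were called in all 12 of these fits and without the block, and Uchl1 in 11. Of the other calls, 24 were lost in all 12 and 61 in at least 2 of them. Lost in all 12 were Arhgef28, Atox1, Atp13a3, Bcl2l1, Calca, Cmpk2, Fam107a, Fgfr3, Fzd4, Gadd45b, Hyal2 and Lims2. The rest of the 24 were Lrrc3b, Ly6c1, Magix, Pcdh17, Ptp4a3, Ralb, Rhoc, Sat1, Slc4a4, Tmem252, Tnip1 and Tspan18. With every well of at least 100 CPM tubule markers left out, 21 genes passed, of which 20 were among the 91, and all 91 kept their sign. Those 20 were Akap12, Cd97, Cdc42ep3, Clec14a, Cmip, Cx3cl1, Gpihbp1, Id1, Id2, Klf12, Litaf, P2ry1, Rnd1, Sdpr, Serpina3g, Sparc, Tinagl1, Tmem173, Tmem26 and Tsc22d1. All other calls were lost in that fit, Gda and Uchl1 among them (adjusted p = 0.176 and 0.0821).

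Genes of the tubule were the steepest falls. Umod, the uromodulin of the thick ascending limb, stood at 964, 55.4, 1233 and 617 CPM in uninjured sums 1 to 4 and at 0.105, 0.0757, 0.254 and 21.4 CPM at day 10. Slc34a1, the phosphate transporter of the proximal tubule, stood at 33.1, 0.0426, 143 and 107 CPM and 0.0874, 0, 0.291 and 0.0955 CPM, so uninjured number 2 lay among the day 10 values. Umod fell without overlap and Slc34a1 with overlap. Klk1, Tmem27, Fbp1, Acsm2, Akr1c21, Slc27a2 and Slc4a4, all made by tubule cells, were the other 7 of this kind that passed (adjusted p from 0.00808 to 0.0498), and 2 of 7 tested proximal tubule markers and 1 of 5 other tubule markers were called lower. Without the block Umod, Klk1, Acsm2 and Akr1c21 did not pass (adjusted p = 0.112, 0.122, 0.103 and 0.0812). Kap, the androgen-regulated protein of the proximal tubule, stood at 126, 1.66, 918 and 1084 CPM and 0.315, 3.93, 2.91 and 3.08 CPM and did not pass (adjusted p = 0.25). Havcr1, the KIM-1 injury marker of the proximal tubule, was at 0 in all uninjured sums and at 0, 0, 0 and 0.611 CPM at day 10, and did not pass.

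Gene lists, here and below, were chosen with earlier results of these data known. Of 20 lipid uptake and transport genes tested, 3 rose and 1 fell, where 0.321% of all 14026 genes rose and 0.328% fell. Gpihbp1, the protein that anchors lipoprotein lipase on the capillary wall, lies at chr15:75596630-75598213 (GRCm38.p6) and stood at 239, 173, 475 and 238 CPM in uninjured sums 1 to 4. At day 10 the same numbers held 1575, 1809, 1595 and 1369 CPM, so every day 10 sum exceeded every uninjured sum. The log2 change was 2.60 ± 0.235 (adjusted p = 0.00139). Fabp4, a cytosolic fatty acid carrier of capillary endothelium, went from 598, 407, 663 and 995 CPM to 2088, 3051, 1885 and 2071 CPM. These groups too were apart, with a log2 change of 1.85 ± 0.286 (adjusted p = 0.0236). Scarb1, the scavenger receptor that binds high-density lipoprotein, went from 174, 149, 191 and 217 CPM to 473, 676, 456 and 406 CPM, again without overlap (1.47 ± 0.238 on the log2 scale, adjusted p = 0.0257).

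Lpl, the lipase that Gpihbp1 holds in place, moved the other way. Its level was 837, 650.1, 444 and 545 CPM in uninjured sums and 395, 491, 209 and 188 CPM at day 10, with day 10 number 2 above uninjured number 3. The log2 change was -1.04 ± 0.19 (adjusted p = 0.0395), but the call was lost without number in the model (adjusted p = 0.353), where the other 3 lipid genes remained. The other 16 of the 20 lipid genes did not pass, and the list median was 0.03. Among them were the carrier Fabp5 at 1.51 (adjusted p = 0.128) and the cholesterol exporter Abca1 at 1.05 (adjusted p = 0.158). In wells without high tubule markers the log2 change of Gpihbp1 was 2.88 (adjusted p = 0.00349), of Fabp4 1.97 (adjusted p = 0.135), of Scarb1 1.34 (adjusted p = 0.0969) and of Lpl -1.17 (adjusted p = 0.112).

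The rise was spread over wells. After thinning each well to 20000 reads, 43.4% of uninjured wells (37.5% to 50% over the 4 numbers) and 75.3% of day 10 wells (64.1% to 90.6%) had a Gpihbp1 read, against 0.549% of uninjured wells of the mesenchyme gate. Unthinned, the shares were 50.5%, 86.4% and 6.04%, at median depths of 353766.5, 447221 and 355733 reads. For Fabp4 the thinned shares were 55.5% and 79%, with 6.32% in uninjured mesenchyme wells (unthinned 72.9%, 90% and 13.7%). For Lpl the thinned shares were 47.9% uninjured and 36.2% at day 10 (unthinned 65.3% and 50.9%), and uninjured mesenchyme wells stood at 48.9%, as high as the endothelia gate.

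Wells were also parted by Ehd3 reads, a range of a score and not a cell type. At least 10 reads were present in 66.3% of uninjured and 73.8% of day 10 wells, with 10 and 14 wells between 5 and 20 reads. In wells with 10 or more Ehd3 reads, thinned Fabp4 shares were 57.5% and 90% and the log2 change was 2.16 (adjusted p = 0.00504). In wells below 10 reads the Fabp4 shares were 51.6% and 48% and the log2 change was 0.50 (adjusted p = 0.999). Gpihbp1 was at 18.8% and 43% in those same wells, with a log2 change of 2.53 (adjusted p = 0.357) close to the 2.58 in the Ehd3 wells. Lpl had reads in 10.2% and 10.0% of wells low in Ehd3 after thinning, against 67.1% and 45.6% of the others. Only 128 uninjured and 100 day 10 wells were low in Ehd3, 2 genes passed there, and the difference between the well classes was not tested.

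**Figure D2:**
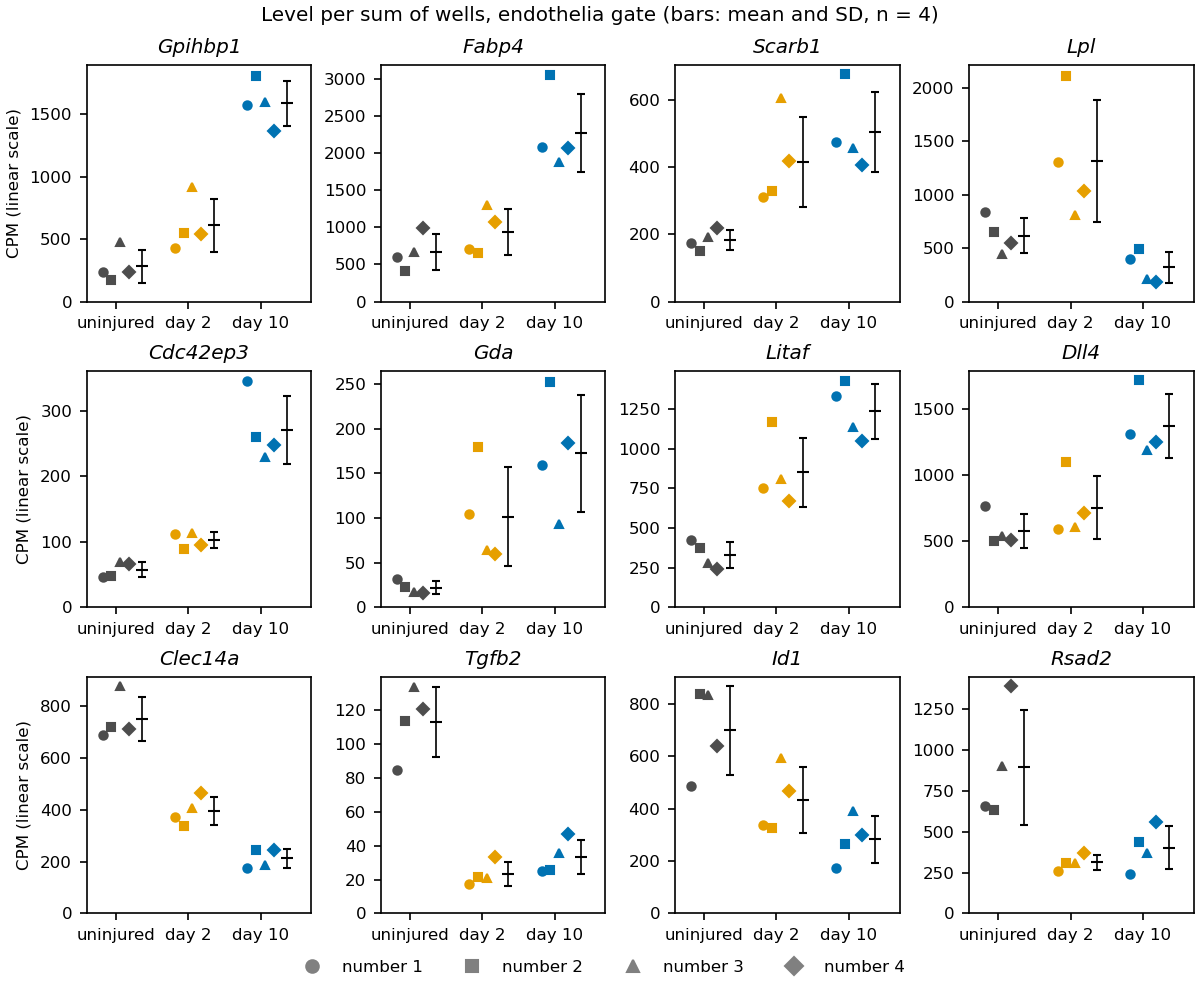
CPM (linear axes from 0) of 12 genes in the 4 sums of each condition of the endothelia gate, with mean and SD beside the points and symbols giving the number. Uninjured and day 10 sums do not overlap in any panel except Lpl, where 3 of the 4 day 2 sums are above all the others.

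**Figure D3:**
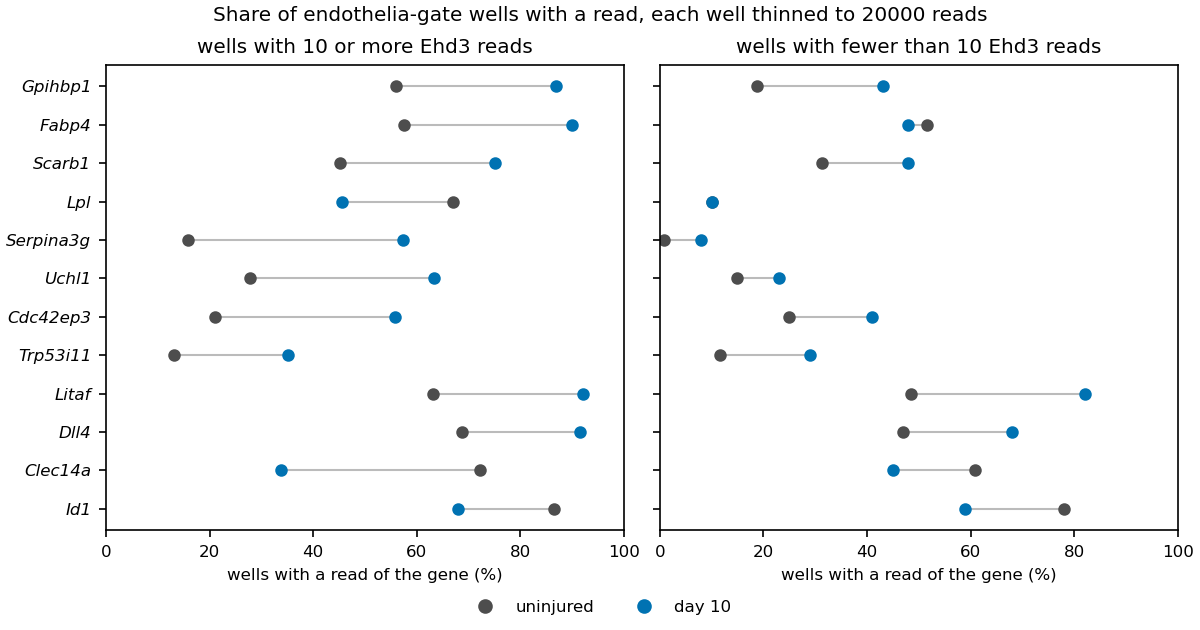
Share of wells with a read of each gene after thinning to 20000 reads per well, uninjured (grey) and day 10 (blue), in wells with 10 or more Ehd3 reads (left) and fewer (right). Fabp4 goes from 57.5% to 90% at left and from 51.6% to 48.0% at right, where the Lpl points lie on each other.

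Tip cell genes, which mark the leading cells of a sprouting vessel, gave 4 rises among 20 tested and no fall, with a list median of 1.15 and 14 members above 0 at an unadjusted p of 0.05. Over all 14026 genes tested, 45 (0.321%) rose and 717 were higher at an unadjusted p of 0.05. Dll4, the Notch ligand of tip and arterial cells, stood at 771, 503, 541 and 508 CPM in uninjured sums and 1314, 1724, 1189.8 and 1252 CPM at day 10. The groups were apart, with a log2 change of 1.22 ± 0.202 (adjusted p = 0.0266, and 0.14 in wells without high tubule markers). Trp53i11, a gene induced by p53, stood at 37.2, 17.9, 66.9 and 70 CPM and then 543, 243, 120.3 and 408 CPM, with a wide spread at day 10 (log2 change 3.01 ± 0.546, adjusted p = 0.0375, 0.0791 without the block and 0.215 in wells without high tubule markers). Its annotated span ends 3 bases from Tspan18, which was called in the opposite direction (-0.73 ± 0.141, adjusted p = 0.0498, and 0.105 without the block), and whether reads were counted by strand is not stated in the sources used here.

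Other tip cell genes had large changes that did not pass. Apln, the apelin peptide, had means of 16.3 and 628 CPM (adjusted p = 0.0582), Angpt2, the destabilising angiopoietin, 21.2 and 219 CPM (adjusted p = 0.132), and Esm1, the proteoglycan endocan, 773 and 1619 CPM (adjusted p = 0.331). Of 17 Notch genes Dll4 alone passed, and the Notch target Hey1 was at a log2 change of 1.06 (adjusted p = 0.0665). None of 15 VEGF and angiopoietin genes passed (3 higher and 3 lower at an unadjusted p of 0.05, the same numbers by DESeq2), Kdr, the main VEGF receptor, being at -0.20 and the angiopoietin receptor Tek at -0.72 (adjusted p = 0.0737). Sox7, an endothelial transcription factor, rose by 1.00 ± 0.185 (adjusted p = 0.0405), the only call among 25 endothelial transcription factors, and was at adjusted p = 0.122 without the block.

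Basement membrane genes gave 3 rises of 18 tested, with a list median of 0.54, where 0.321% of all 14026 genes tested rose. Sparc, a collagen-binding matricellular protein, stood at 2526, 2198, 2290.1 and 2257 CPM and 4708, 4029, 4951 and 4054 CPM. The day 10 sums were all above the uninjured ones by a similar margin (log2 change 0.93 ± 0.13, adjusted p = 0.0165), and Sparc passed without the block and without the tubule-rich wells (adjusted p = 0.0186 and 0.0394). Col4a1 and Col4a2 encode the 2 chains of the common type IV collagen and also belong to the tip cell list. Col4a1 stood at 603, 364, 518 and 539 CPM and 984, 1158, 1101 and 1151 CPM, and Col4a2 at 483, 340.3, 372 and 348 CPM and 872, 823, 910.1 and 851 CPM. Both rose without overlap, by 1.14 ± 0.204 (adjusted p = 0.0375) and 1.17 ± 0.173 (adjusted p = 0.0216), and Col4a2 but not Col4a1 passed without the block (adjusted p = 0.0225 and 0.0578). Neither passed without the tubule-rich wells (adjusted p = 0.16 for Col4a1 and 0.135 for Col4a2).

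The pair is transcribed in opposite directions from 1 place. Their RefSeq spans overlap at the starts on chromosome 8, so reads there cannot be told apart without strand. The linker Nid1 was at 0.89 (adjusted p = 0.128), the laminin chain Lamb2 at -0.50 (adjusted p = 0.294) and Col18a1 at -0.59 (adjusted p = 0.236). Tinagl1, a secreted matrix protein, fell from 1078, 996, 1495 and 1026 CPM to 300.1, 469, 884 and 429.6 CPM (-1.23 ± 0.172, adjusted p = 0.0165, and 0.145 without the block). None of 24 fibrillar collagen and stromal matrix genes passed, with a median of 0.05, 1 higher and 2 lower at an unadjusted p of 0.05 and 1 and 1 called by DESeq2. None of 15 markers of endothelial-to-mesenchymal transition passed either, with a median of -0.21, 1 and 1 unadjusted, and 0 and 1 by DESeq2. In that second list the repressor Zeb2 had the smallest p, at -1.16 (adjusted p = 0.061), and Acta2, the smooth muscle actin, was at -0.83 (adjusted p = 0.878).

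Of 18 metalloproteases and their inhibitors, 1 rose, with a list median of -0.17, where 0.321% of all genes tested rose. Adamts4, a protease that cuts aggregating proteoglycans, stood at 1.47, 1.71, 3.61 and 11.4 CPM in uninjured sums and 102, 39.7, 89.2 and 86.4 CPM at day 10 (4.54 ± 0.72, adjusted p = 0.0236, and 0.253 without the tubule-rich wells). In the same list the membrane-bound inhibitor Reck was at -1.37 (adjusted p = 0.0702). Hapln1, a link protein that ties hyaluronan to such proteoglycans, stood at 9.38, 1.79, 6.12 and 3.13 CPM and 105, 60.2, 33.9 and 75.2 CPM (3.79 ± 0.607, adjusted p = 0.024). Its reads came from few wells, 7 of 380 uninjured and 63 of 381 at day 10. Hyal2, a surface enzyme that cuts hyaluronan, fell from 497, 424, 541 and 488 CPM to 251, 258, 379 and 265 CPM (-0.78 ± 0.138, adjusted p = 0.0375, and 0.131 without the block). Lgmn, the lysosomal protease legumain, rose from 56.9 ± 24.2 to 156 ± 13.2 CPM (adjusted p = 0.0449).

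Of 11 secreted acute-phase genes tested, 2 serpins rose, with a list median of 2.06, where 0.321% of all genes tested rose. Serpina3g, a protease inhibitor of the antichymotrypsin cluster, stood at 141, 191, 38.4 and 20 CPM in uninjured sums and 665, 412, 559 and 753 CPM at day 10. The groups were apart although uninjured sums ranged widely (log2 change 3.15 ± 0.559, adjusted p = 0.0375, and 0.101 without the block). Thinned shares of wells with a read were 10.8% uninjured and 44.4% at day 10, with 1.1% in uninjured mesenchyme wells (unthinned 19.2%, 60.9% and 3.57%). Serpina3n, from the same cluster, was near 0 in uninjured sums (0.0473, 0.128, 0.0457 and 0.12 CPM) and at 15.7, 16.9, 0.109 and 17.8 CPM at day 10, so day 10 number 3 lay within the uninjured range. It passed at adjusted p = 0.0375, and reads of these similar genes can be shared. Lrg1, a secreted glycoprotein, had means of 31.7 and 162 CPM and did not pass (adjusted p = 0.0585). Osteopontin (Spp1) stood at 69.7, 5.8, 84.4 and 41 CPM uninjured, 559, 1230.0, 777 and 1834 CPM at day 2 and 12.2, 1.78, 10.4 and 913 CPM at day 10, with 1 high sum at day 10, and it did not pass (adjusted p = 0.918).

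Called genes that act on the cytoskeleton were gathered after their values were seen, so no count stands for them as a group. Cdc42ep3, an effector of the small GTPase Cdc42 that organises septins and actin, stood at 46.5, 48.5, 69.1 and 65.9 CPM in uninjured sums. At day 10 it stood at 346, 259, 229.7 and 249 CPM, with no overlap, a log2 change of 2.24 ± 0.206 (adjusted p = 0.00139) and an adjusted p of 0.00713 without the tubule-rich wells. Thinned, 22.4% of uninjured and 52% of day 10 wells had a read (unthinned 30.8% and 62.7%). Rnd1, a regulator of actin, went from 62.9, 47.7, 127 and 40.9 CPM to 320.0, 223, 398 and 472 CPM (2.37 ± 0.343, adjusted p = 0.0181). Rhoc, a small GTPase, rose by 1.16 ± 0.192 (adjusted p = 0.0266) and Akap12, a scaffold for kinases, by 1.85 ± 0.302 (adjusted p = 0.0257).

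Among the tubulins Tubb6 went from 38.5, 8.74, 59.7 and 27.4 CPM to 439.6, 105, 199 and 145 CPM (2.84 ± 0.382, adjusted p = 0.0147). Tubb3, the tubulin best known from neurons, was at 2.65, 0, 0.411 and 0.168 CPM and 38.4, 2.8, 47.6 and 14.3 CPM (adjusted p = 0.0375). Arhgef28, a guanine nucleotide exchange factor, rose with overlapping sums (1.29 ± 0.248, adjusted p = 0.0498), and Ralb, a Ras-like GTPase of exocytosis, by 0.88 ± 0.151 (adjusted p = 0.03). Radixin (Rdx), which links actin to the membrane, fell from 819.9, 586, 552 and 766 CPM to 364, 310.0, 314 and 447 CPM (-0.92 ± 0.144, adjusted p = 0.0236). Without the block Rnd1, Rhoc, Ralb and Cdc42ep3 passed, and Akap12, Tubb6, Tubb3, Arhgef28 and Rdx did not (adjusted p = 0.0941, 0.0578, 0.187, 0.0926 and 0.0595). With sums left out, Rhoc, Ralb and Arhgef28 passed in 0 of the 12 fits, Tubb3 in 1, Rdx in 2 and Akap12 in 3. Rnd1 passed in 7, Tubb6 in 9 and Cdc42ep3 in all 12.

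Litaf, an endosomal membrane protein first described as an LPS-induced factor, stood at 426, 374, 282 and 240.4 CPM and 1331, 1429.8, 1135 and 1046 CPM. Its day 10 sums were all more than 1000 CPM and its uninjured sums all below 427 CPM (1.92 ± 0.154, adjusted p = 0.00139). Litaf alone of the 91 passed in wells low in Ehd3 (log2 change 2.01, adjusted p = 0.018). Gda, the guanine deaminase of purine breakdown, stood at 31.8, 23.3, 17.6 and 16.1 CPM and 159, 252, 93.8 and 184 CPM (2.92 ± 0.287, adjusted p = 0.00211). Uchl1, a deubiquitinating enzyme, stood at 60.3, 47.8, 75.1 and 33.8 CPM and 175, 431, 239 and 309.7 CPM (2.37 ± 0.311, adjusted p = 0.0125). In wells low in Ehd3 the Uchl1 difference was -0.36 (adjusted p = 0.999), of the opposite sign, and in the Ehd3 wells 2.57 (adjusted p = 0.00194). Tnfaip8l1 rose from 21.9 ± 7.78 to 129.5 ± 35.8 CPM (2.61 ± 0.284, adjusted p = 0.00472) and passed in 10 of the 12 fits with sums left out.

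Genes of TGF-beta and BMP signalling gave more falls than rises. Of 28 genes tested 4 fell and 1 rose, with a list median of -0.68, and at an unadjusted p of 0.05 there were 11 lower and 3 higher. Over all 14026 genes tested 0.328% fell and 0.321% rose, with 808 lower and 717 higher at an unadjusted p of 0.05. The ligand Tgfb2 stood at 84.7, 114, 134 and 121 CPM in uninjured sums and 25, 25.6, 35.8 and 46.6 CPM at day 10. The groups were apart, by -1.80 ± 0.225 on the log2 scale (adjusted p = 0.0105, and 0.0935 without the tubule-rich wells). In wells with 10 or more Ehd3 reads the difference was -0.69 (adjusted p = 0.913), and in the wells below that -1.68 (adjusted p = 0.78). Ltbp4, which stores latent TGF-beta in the matrix, fell from 683 ± 206 to 278 ± 99.8 CPM (-1.31 ± 0.246, adjusted p = 0.0449, and 0.0706 without the block).

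Id1 and Id2 are inhibitors of helix-loop-helix transcription factors and classic targets of BMP signalling. Id1 stood at 489, 838, 835 and 638 CPM and 172, 265, 392 and 300.4 CPM, and Id2 at 232, 427, 286 and 352 CPM and 94.9, 144, 66.2 and 155 CPM. Day 10 sums lay below all uninjured sums for both, with log2 changes of -1.34 ± 0.173 (adjusted p = 0.0124) and -1.53 ± 0.211 (adjusted p = 0.0164). Both passed without the tubule-rich wells (adjusted p = 0.0394 and 0.0394), and without the block Id2 passed and Id1 did not (adjusted p = 0.029 and 0.0642). Id3 was at -0.89 (adjusted p = 0.0752), the co-receptor endoglin (Eng) at -0.60 (adjusted p = 0.121) and the receptor Bmpr2 at -0.81 (adjusted p = 0.115). Smad1, the transducer of BMP signals, went the other way, from 58.8, 27.3, 27.5 and 58.1 CPM to 109, 109, 82.6 and 136 CPM (1.40 ± 0.237, adjusted p = 0.0284, and 0.0812 without the block).

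Because Id2 fell with Id1, its promoter is shown, the 250 bases before the RefSeq start at chr12:25096093-25096342 (GRCm38.p6, minus strand, 5′ to 3′), with the 1 match to the GC-rich Smad motif GGCGCC in capitals, starting 231 bases before the gene.
Id2: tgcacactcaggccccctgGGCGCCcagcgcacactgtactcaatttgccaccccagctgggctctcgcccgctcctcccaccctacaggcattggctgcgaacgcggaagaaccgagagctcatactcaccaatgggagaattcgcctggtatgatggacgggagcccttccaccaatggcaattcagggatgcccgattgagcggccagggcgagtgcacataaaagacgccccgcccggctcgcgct
The motif reads the same on both strands and was present in 10.8% of 27025 genes' windows and in 19.0% of those tested. Among called genes with a window, 6 of 33 higher genes (18.2%) and 11 of 39 lower genes (28.2%) held it. A match is a run of letters and no evidence of binding.

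Of 39 interferon response genes tested, 26 had a log2 change above 0, against 6841 of all 14026 genes tested. Past the adjusted threshold 2 of the 39 rose and 1 fell (0.321% and 0.328% over all genes), with a list median of 0.33. At an unadjusted p of 0.05, 11 were higher and 1 lower, against 717 and 808 of all genes. Rsad2 (viperin), an antiviral enzyme, stood at 659, 630.3, 906 and 1391 CPM in uninjured sums and 243, 440.0, 369 and 559.8 CPM at day 10. The sums did not overlap, with a log2 change of -1.15 ± 0.179 (adjusted p = 0.0236, and 0.122 without the block). Its neighbour Cmpk2, a mitochondrial nucleotide kinase induced with it, fell from 232 ± 41.5 to 100.3 ± 36.5 CPM (-1.24 ± 0.211, adjusted p = 0.03, and 0.0626 without the block), and the genes lie 12665 bases apart on chromosome 12.

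Ifitm3, a membrane protein that blocks virus entry, stood at 1128, 1289, 1723 and 1307 CPM and 1939, 1952, 2822 and 2214 CPM. It rose without overlap by 0.71 ± 0.113 (adjusted p = 0.0236, and 0.163 without the block). Tmem173 (STING), the sensor adaptor for cytosolic DNA, rose from 23.5, 46.8, 67 and 24.2 CPM to 138, 97, 144 and 104 CPM (1.66 ± 0.302, adjusted p = 0.0384). Iigp1, an interferon-induced GTPase, had means of 262 and 885 CPM (adjusted p = 0.132), the sensor effector Ifit1 102 and 195 CPM (adjusted p = 0.167), and Irf7 185 and 274 CPM (adjusted p = 0.196). None of 17 MHC class I genes (median -0.08, 2 higher and 1 lower unadjusted) or 8 MHC class II genes (median 0.78, 0 unadjusted) passed with edgeR or DESeq2, B2m being at 0.23 (adjusted p = 0.435).

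The promoters of Rsad2 and Ifitm3 are shown because these interferon genes moved in opposite directions. They are the 250 bases before each RefSeq start, at chr12:26456453-26456702 for Rsad2 and chr7:141010745-141010994 for Ifitm3, both on the minus strand of GRCm38.p6 and given 5′ to 3′. Capitals mark the 1 match to the interferon-stimulated response element, searched as GAAA, any 2 bases and GAAA again on both strands, which begins 120 bases before Rsad2. The same window of Cmpk2, which fell with Rsad2, held 0 matches and is not shown.
Rsad2: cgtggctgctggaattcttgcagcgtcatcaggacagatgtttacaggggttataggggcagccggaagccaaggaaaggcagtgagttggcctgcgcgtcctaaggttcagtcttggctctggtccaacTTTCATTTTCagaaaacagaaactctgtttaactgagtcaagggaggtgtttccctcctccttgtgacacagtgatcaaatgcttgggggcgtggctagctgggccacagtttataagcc
Ifitm3: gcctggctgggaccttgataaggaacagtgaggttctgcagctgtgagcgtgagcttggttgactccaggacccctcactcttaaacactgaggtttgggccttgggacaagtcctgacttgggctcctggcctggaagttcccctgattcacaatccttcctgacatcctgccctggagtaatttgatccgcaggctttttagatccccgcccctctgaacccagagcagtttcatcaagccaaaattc
These letters were found in 3.46% of all 27025 genes' windows and in 3.1% of tested genes, in 0 of 33 higher genes and in 2 of 39 lower genes (Rsad2 and Sgk1). Of the other motifs searched, the E-box CACGTG was in 9.09% of higher and 12.8% of lower genes (9.74% of tested genes and 6.86% of all), the STAT motif TTCNNNGAA in 12.1% and 2.56% (7.16% of tested genes and 8.13% of all), and the consensus NF-kB site and the Smad palindrome GTCTAGAC in none of either.

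Inflammatory signalling gave 1 call among 10 chemokine genes and 1 among 19 NF-kB genes. Of all 14026 genes tested 0.649% were called, and 717 were higher and 808 lower at an unadjusted p of 0.05. Cx3cl1 (fractalkine), a membrane-bound chemokine that holds monocytes, stood at 591, 534, 552 and 209 CPM and 1175, 1386, 1087 and 916 CPM, with uninjured number 4 far below the other 3. It rose by 1.35 ± 0.212 (adjusted p = 0.0236, 0.0224 without the tubule-rich wells and 0.122 without the block) and was the 1 call among 10 chemokine genes. Of 19 NF-kB members and feedback genes, the feedback inhibitor Tnip1 rose (45.3, 32.5, 27.8 and 39.6 CPM against 83.6, 66.2, 112 and 100.4 CPM, log2 change 1.32 ± 0.237, adjusted p = 0.0375, and 0.16 without the tubule-rich wells), while 11 were higher and 1 lower at an unadjusted p of 0.05. The list median was 0.66, and Nfkb2 and Rela were at 0.82 (adjusted p = 0.144) and 0.61 (adjusted p = 0.159). Casp4, the inflammatory caspase that senses intracellular LPS, rose from 57.8, 23.7, 15.6 and 18.6 CPM to 109, 82.1, 85.4 and 93.6 CPM (1.86 ± 0.266, adjusted p = 0.0179, and 0.0791 without the block).

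None of 19 IL-6 and oncostatin M genes passed, with a median of 0.50 and 8 higher at an unadjusted p of 0.05, and DESeq2 called 4 higher. Over all 14026 genes tested, 717 were higher at an unadjusted p of 0.05 and DESeq2 called 332 higher. Socs3, the feedback inhibitor of that pathway, had means of 502 and 1494 CPM (adjusted p = 0.127), the oncostatin M receptor Osmr 71.4 and 154 CPM (adjusted p = 0.128) and Stat3 221 and 307 CPM (adjusted p = 0.158). Adhesion molecules for leukocytes gave 0 calls of 15 (4 higher and 2 lower at an unadjusted p of 0.05, 3 and 2 by DESeq2). Sele (E-selectin) had means of 23.1 CPM uninjured, 284 CPM at day 2 and 56.4 CPM at day 10, and Icam1 was at 0.32 (adjusted p = 0.755). None of 15 complement genes (median 0.33) passed, with 3 higher at an unadjusted p of 0.05 and 2 by DESeq2.

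Among the falls, Clec14a had the firmest. This C-type lectin of the endothelial surface, which binds the matrix protein multimerin-2, stood at 688, 721, 877 and 714 CPM in uninjured sums and 176, 244, 185 and 245 CPM at day 10. All day 10 sums lay below all uninjured sums, with a log2 change of -1.83 ± 0.163 (adjusted p = 0.00139). Thinned shares of wells with a read were 68.4% (67.2% to 73.4% over numbers) and 36.7% (33.9% to 39.7%), with 6.87% in uninjured mesenchyme wells (unthinned 76.1%, 45.1% and 12.6%). The change was -2.11 (adjusted p = 0.00194) in the Ehd3 wells and -1.09 (adjusted p = 0.999) in the others.

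Gas6, the ligand of the TAM receptor kinases, fell from 618, 530.1, 829 and 721 CPM to 169, 176, 411 and 235 CPM (-1.52 ± 0.181, adjusted p = 0.00808). Slc6a6, the taurine transporter, fell from 1401, 1447, 2104 and 1709 CPM to 537, 291, 925 and 557 CPM (-1.61 ± 0.19, adjusted p = 0.00808). Both groups of sums were apart, and both calls were lost without the block (adjusted p = 0.0761 and 0.0559). The transcription factor Klf12 was even among uninjured sums, at 236, 217, 239 and 221 CPM, and stood at 83.9, 43.5, 48 and 61.4 CPM at day 10 (-2.0 ± 0.321, adjusted p = 0.024). Calca, which encodes calcitonin gene-related peptide, went from 172, 136, 146 and 86.6 CPM to 22, 14.9, 1.6 and 21.9 CPM (-3.48 ± 0.671, adjusted p = 0.0498, and 0.069 without the block).

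Receptors and surface proteins among the falls were the ADP receptor P2ry1 (-1.61 ± 0.247, adjusted p = 0.0236), the fibroblast growth factor receptor Fgfr3 (-1.82 ± 0.288, adjusted p = 0.0236), the Wnt and norrin receptor Fzd4 (-1.23 ± 0.237, adjusted p = 0.0498), the adhesion G protein-coupled receptor Cd97 (-1.12 ± 0.175, adjusted p = 0.0236), the adhesion protein Amigo2 (-1.97 ± 0.255, adjusted p = 0.0124) and Ly6c1 (-0.68 ± 0.125, adjusted p = 0.0408). P2ry1, Fzd4, Amigo2 and Ly6c1 were lost without the block (adjusted p = 0.127, 0.172, 0.139 and 0.0812). Pi16, a secreted protein of the glomerular marker list, fell from 1374, 987, 1297 and 855 CPM to 525, 515, 649 and 457 CPM (-1.06 ± 0.202, adjusted p = 0.0479, and 0.061 without the block), the 1 call among those 9 markers, while Ehd3 was at -0.35 (adjusted p = 0.688). Sdpr (cavin-2), a coat protein of caveolae, fell from 812 ± 162 to 344 ± 60.3 CPM (-1.22 ± 0.191, adjusted p = 0.0236).

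Magix (-2.16 ± 0.371, adjusted p = 0.0302), Thrsp, a regulator of lipid synthesis (-2.37 ± 0.378, adjusted p = 0.024), Fam107a, an actin-associated stress gene (-2.88 ± 0.492, adjusted p = 0.03), and Atp13a3, a polyamine transporter (-1.57 ± 0.296, adjusted p = 0.0471), also fell. Sat1, which acetylates polyamines for export and breakdown, rose from 443, 427, 487 and 715 CPM to 1141, 898, 731 and 1138 CPM (0.91 ± 0.166, adjusted p = 0.0375). Fam107a, Atp13a3 and Sat1 were lost without the block (adjusted p = 0.172, 0.11 and 0.112). Tmem26, a membrane protein, rose from 149 ± 89.1 to 411 ± 86.8 CPM (1.68 ± 0.241, adjusted p = 0.0179, and 0.209 without the block).

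The calls not yet named were these. Higher at day 10 were Apbb2, an adaptor of the amyloid precursor protein (1.20), Atox1, a copper chaperone (0.74), Clca1 (3.91), Pcdh17, a protocadherin (0.94), Pgs1, an enzyme of cardiolipin synthesis (1.17), Ptp4a3, a phosphatase (0.77), Tmem176b (0.85), Tmem252 (1.46), Trib1, a pseudokinase (1.15), Tsc22d1, a transcriptional regulator (1.12), and Upp1, a uridine phosphorylase (1.18). Lower were Bcl2l1, which encodes the survival protein Bcl-xL (-0.98), Cmip, an adaptor protein (-1.38), Gadd45b, a stress-induced gene (-1.18), Itpr2, a calcium release channel (-1.40), Lims2, a focal adhesion protein (-0.69), Lrrc3b (-1.37) and St6galnac3, a sialyltransferase (-1.35). Their adjusted p values lay between 0.0164 and 0.0498, and uninjured and day 10 sums overlapped for Bcl2l1, Ptp4a3 and Tmem252. Without the block 9 of these 18 did not pass, namely Atox1, Bcl2l1, Gadd45b, Itpr2, Lims2, Lrrc3b, Ptp4a3, Tmem252 and Tsc22d1, with adjusted p from 0.0901 to 0.485.

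Flow-responsive genes gave 1 fall of 17, with a median of -0.42 and 8 lower and 0 higher at an unadjusted p of 0.05. Of all 14026 genes tested 0.328% fell, and 808 were lower and 717 higher at an unadjusted p of 0.05. Txnip, the inhibitor of thioredoxin, stood at 1715, 3402, 1989.7 and 1899.9 CPM and 1101, 1121, 981 and 1077 CPM, with uninjured number 2 high (-1.04 ± 0.17, adjusted p = 0.0257). The flow-induced factors Klf2 and Klf4 were at -0.74 ± 0.192 (adjusted p = 0.144) and -0.90 ± 0.246 (adjusted p = 0.164), and endothelin-1 (Edn1) at -1.35 (adjusted p = 0.278). In wells with 10 or more Ehd3 reads Klf2 and Klf4 passed, at -0.99 (adjusted p = 0.0234) and -1.22 (adjusted p = 0.0474). In wells below 10 reads Klf2 and Klf4 were at -0.31 and -0.62 (adjusted p = 0.999 for each). Without the tubule-rich wells they were at -0.77 and -1.02 and did not pass (adjusted p = 0.215 and 0.165). Sgk1, a kinase induced by steroids, fell from 5009.6, 4182, 3402 and 3756 CPM to 1699.9, 2324, 1949 and 2239.5 CPM (-0.98 ± 0.16, adjusted p = 0.0257).

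The remaining lists held no call with edgeR. Of all 14026 genes tested, 1525 (10.9%) were at an unadjusted p of 0.05 and DESeq2 called 760. Coagulation and fibrinolysis (19 tested, median 0.72) had 7 members higher and 2 lower at an unadjusted p of 0.05, and DESeq2 called 4 and 1. Junction genes (20, median 0.13) had 5 and 4, and DESeq2 called 2 and 1. The insulin-like growth factor axis (12, median 0.53) had 4 and 1, with 1 and 1 by DESeq2, and vasoactive genes (19, median -0.06) 2 and 4, with 1 and 2 by DESeq2. Semaphorins with their receptors (26, median 0.36) had 2 and 3, and immediate early genes (21, median -0.09) 2 and 2, with 1 and 1 by DESeq2 in either list. Oxidative phosphorylation (25, median 0.03) and cell cycle genes (24, median 0.49) each had 1 and 0, with 0 by DESeq2, and hypoxia and glycolysis genes (26, median 0.15) 1 and 1, with 0 and 1 by DESeq2. VE-cadherin (Cdh5) was at 0.51 (adjusted p = 0.153), Plvap, the diaphragm protein of fenestrae, at -1.0 (adjusted p = 0.459) and the proliferation marker Mki67 at 18.8 and 19.2 CPM.

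**Figure D4:**
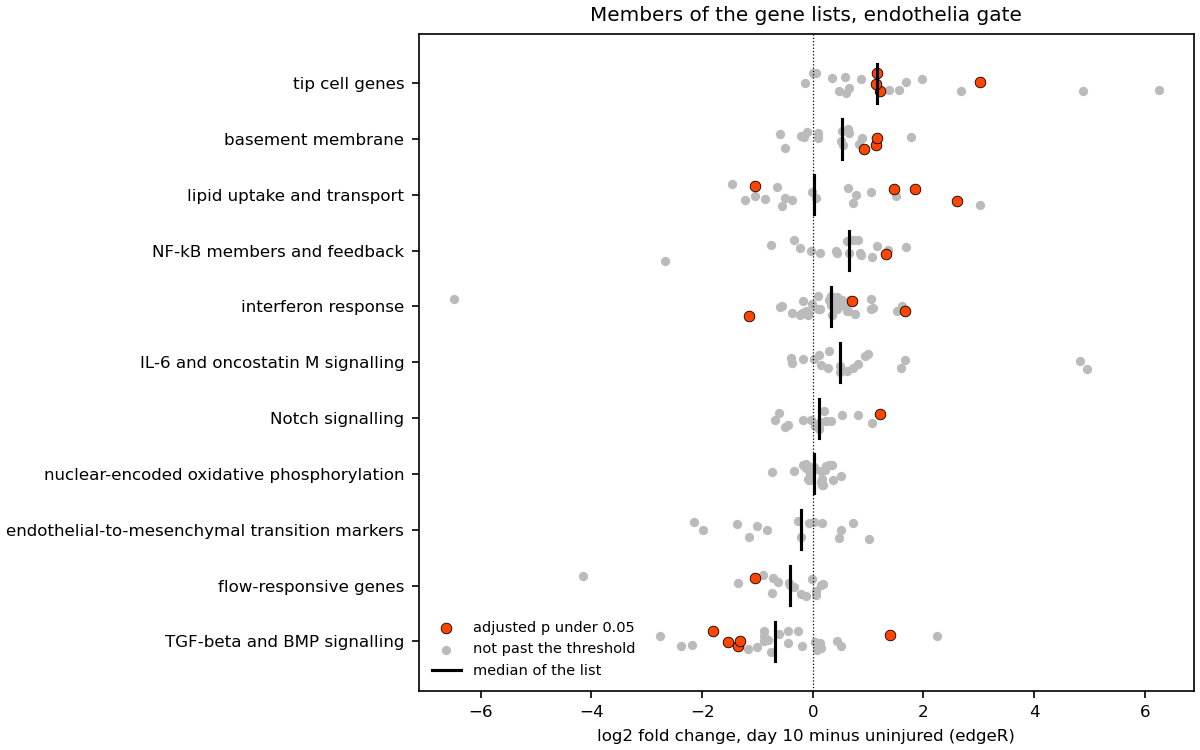
Log2 change at day 10 of each tested member of 11 gene lists in the endothelia gate, with members past the adjusted threshold in orange and the list median as a bar. Tip cell genes have 4 orange points to the right of 0 and a median of 1.15, and TGF-beta and BMP genes 4 to the left, 1 to the right and a median of -0.68.

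Day 10 was also set against day 2 in the same fit, and 2 of 14026 genes passed, both lower (0.0143%), with 882 (6.29%) at an unadjusted p of 0.05. Without the block 0 passed (764 unadjusted), without numbers 1 to 4 the counts were 0, 6, 0 and 0, and DESeq2 called 289. Lpl stood at 1305, 2117, 809 and 1032 CPM at day 2, overlapping the uninjured sums and above all day 10 sums, a log2 difference of -2.06 ± 0.195 (adjusted p = 0.00725). Tmem27, the tubule gene, was the other, at 6 reads in the day 10 sums together. For genes called against uninjured mice the day 2 mean was often between the other 2: Gpihbp1 was at 609 CPM, Fabp4 at 936 CPM, Cdc42ep3 at 103 CPM and Clec14a at 395 CPM, and none of these 4 differed from day 10 past the threshold. Others were at their day 10 level by day 2, such as Col4a1 at 1154 CPM, Adamts4 at 92.7 CPM and Tgfb2 at 23.1 CPM. Hapln1 was at 5.42 CPM at day 2 and 68.5 CPM at day 10, a difference that did not pass.

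The mesenchyme gate of the same plates was compared by an interaction test over all 24 sums, in which 41 of 16116 genes (0.254%) passed, 18 with the endothelial change above the mesenchymal one (0.112%) and 23 below (0.143%). The count was 26 without the block and 1, 11, 4 and 2 without numbers 1 to 4. Fabp4 rose in the endothelia gate and was at -2.57 ± 0.739 in the mesenchyme gate (adjusted p = 0.131), a difference of 4.25 ± 0.768 (adjusted p = 0.0239). Cdc42ep3 was at -0.09 ± 0.204 there, a difference of 2.29 ± 0.32 (adjusted p = 0.00467). Rnd1, Trp53i11 and Smad1 differed by 3.98, 3.23 and 2.37 (adjusted p = 0.0311, 0.0492 and 0.019). Hmbox1, a homeobox protein, and Kti12 differed by 2.84 and 2.46 (adjusted p = 0.0209 and 0.0209), without being called in the endothelia gate alone (adjusted p = 0.132 and 0.232).

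On the other side, Timp1, the secreted metalloprotease inhibitor, was at 2.06 ± 0.512 in the endothelia gate (adjusted p = 0.128) and 6.70 ± 0.597 in the mesenchyme gate (adjusted p = 0.0013), a difference of -4.37 (adjusted p = 0.0243). Cpne8, a calcium-dependent membrane-binding protein, and Ly6a (Sca-1) differed by -3.47 and -3.04 (adjusted p = 0.0014 and 0.0209). Il18bp, the decoy that binds interleukin-18, and Znrf1, a ubiquitin ligase, differed by -2.85 and -2.09 (adjusted p = 0.0333 and 0.0492). Cd97 fell in the endothelia gate and was at 0.99 ± 0.241 in the mesenchyme gate (adjusted p = 0.0823), a difference of -2.10 (adjusted p = 0.0219). Id1 was called in both gates, at -1.36 ± 0.129 in mesenchyme (adjusted p = 0.00159), as was Ifitm3, at 1.07 ± 0.151 (adjusted p = 0.00909), and neither interaction passed (adjusted p = 0.996 and 0.562). For Clec14a and Gas6 the difference between gates also did not pass (adjusted p = 0.857 and 0.288), and Gpihbp1 was too sparse in mesenchyme wells to be tested in that gate alone.

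**Figure D5:**
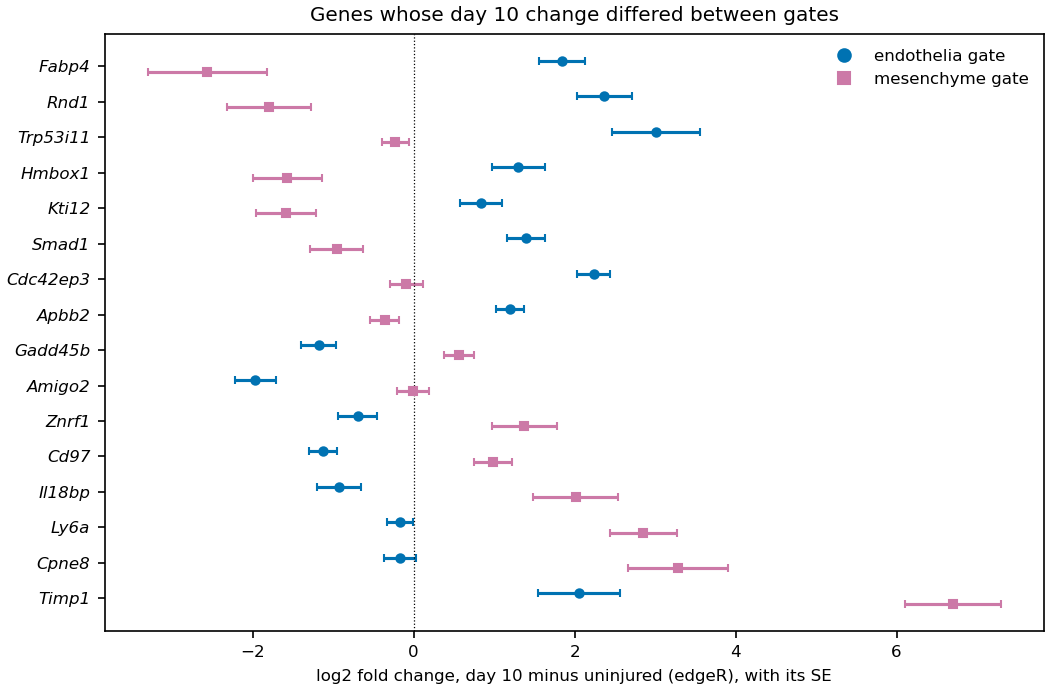
Log2 change from uninjured to day 10, with its SE, in the endothelia gate (circles) and the mesenchyme gate (squares) for 16 genes whose changes differed between gates. Fabp4 lies at 1.85 and -2.57, and Timp1 at 2.06 and 6.70.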

How the data were processed

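For each of 6 plates the authors deposited whole-number read counts per gene and well, read counts per ERCC spike-in and a layout naming each well's gate, condition and number, per the file headers. The deposited counts are not normalized. STAR and mm10 are named without a version in the submitters' processing notes, and the counting tool, annotation and use of strand are not given in the sources used here. Entries of 1 symbol were added, leaving 23998 symbols of 24490 entries. Genes of similar sequence can share reads. The 12 control wells held a median of 3264 reads.

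Wells with at least 1000 genes and 20000 reads were kept and summed per gate, condition and number. edgeR 4.0.16 (R 4.3.3) fitted the 12 endothelia sums with number as a block after filterByExpr and TMM scaling, and quasi-likelihood F tests were adjusted by Benjamini-Hochberg over all genes, with a threshold of 0.05. A standard error is the log2 change over the square root of F, and CPM are TMM-scaled per sum, except for marker sums. Difference between gates was tested in a fit of all 24 sums. Same-numbered uninjured and day 10 sums shared little deviation across genes (r = 0.00193, 0.00141, 0.180 and 0.0698), and number was kept as a block because wells of 1 number share their plates. The fit was tested on simulated data with known changes. Alternatives used DESeq2 1.42.0, other scalings, filters, well sets and sums left out.

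The text names the 15 largest changes per direction at a mean log2 CPM of at least 4, the leading members of each list, 9 fixed genes, and, chosen after their values were seen, the other called genes. The wells and gene lists were chosen with earlier results of these data known. Positions and promoters are from RefSeq (GRCm38.p6), where 72 of 91 called genes had a window.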

Additional observations from a re-analysis of the deposited data

Results flagged for a closer look

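In 18 of 246 groups of 4 sums, 1 sum lay far from the other 3 by Dixon's ratio at its 95% level, where chance gives about 1 in 20. Among uninjured sums these were Arhgef28 at 86.2 CPM, Bcl2l1 at 456 CPM, Cx3cl1 at 208.8 CPM (the low one), Dll4 at 771 CPM, Fam107a at 203 CPM, Tinagl1 at 1495 CPM, Tubb3 at 2.65 CPM and Txnip at 3402 CPM. Among day 10 sums they were Atox1 at 408 CPM, Fzd4 at 48.8 CPM, Hyal2 at 379 CPM, Lgmn at 136 CPM (low), Serpina3n at 0.109 CPM (low), Tmem27 at 0.115 CPM, Umod at 21.4 CPM, Spp1 at 913 CPM, Havcr1 at 0.611 CPM and Osmr at 264 CPM.

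The day 10 change differed between the gates, by the interaction test, for 16 genes named here. The endothelial change was above the mesenchymal one, on the log2 scale, for Fabp4 (4.25), Rnd1 (3.98), Trp53i11 (3.23), Hmbox1 (2.84), Kti12 (2.46), Smad1 (2.37), Cdc42ep3 (2.29) and Apbb2 (1.58). It was below for Timp1 (-4.37), Cpne8 (-3.47), Ly6a (-3.04), Il18bp (-2.85), Cd97 (-2.10), Znrf1 (-2.09), Amigo2 (-1.97) and Gadd45b (-1.70).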

How the results depend on the processing

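The count of 91 day 10 calls was 760 with DESeq2's Wald test, 167 without the low-count filter, 307 with sums per plate, 148 with wells thinned to 20000 reads, 50 with no replicate block, 9 with the 8 uninjured and day 10 sums alone, 21 without tubule-rich wells, 2 in wells under 10 Ehd3 reads, and from 6 to 60 with sums left out. It stayed within 1.5 times under the other 5 alternatives: 89 with DESeq2 size factors, 87 with library size alone, 69 with 2000 genes and 100000 reads per well, 83 with 10 reads of both Pecam1 and Cdh5, and 93 with 10 reads of Ehd3. Removing tubule-rich wells left fewer wells and moved the median of all genes to 0.13.

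Against day 2 the count of 2 became 0 with no replicate block in edgeR (764 at an unadjusted p under 0.05), 19 without the filter, 289 with DESeq2 and 0 to 6 with numbers left out. For the difference between gates, 41 became 26 with no replicate block, 25 without the filter, 593 with DESeq2 and 1 to 11 with numbers left out. The rise in genes per well ran from 391.5 to 564.5, and at 20000 reads from 267.667 to 394.833, with 1 number left out, where 3 against 3 cannot go below an exact permutation p of 0.1. Medians per plate gave a log2 gene to ERCC difference of 0.245 (exact permutation p = 0.0152).

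The sign of the calls held wherever they were tested (87 of 91 with the 8 sums alone, 89 in wells under 10 Ehd3 reads, and all 91 in the other alternatives), except for Pcdh17 (-0.016) and Uchl1 (-0.36) in wells under 10 Ehd3 reads. Uncalled genes that changed sign were Cpne8 (0.10 without tubule-rich wells, -0.27 to 0.025 with sums left out), Il18bp (0.015) and Pecam1 (-0.0057) in wells under 10 Ehd3 reads, Ly6a (-0.26 to 0.053 with sums left out) and Spp1, at 2.22 with no replicate block, 0.50 with Pecam1 and Cdh5 reads, 1.04 without tubule-rich wells, 0.10 in wells under 10 Ehd3 reads and -2.60 to 0.67 with sums left out. The causes were not tested. Depth limits the wells more than the sums: an uninjured well held a median of 353766.5 reads.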
